A study of Homo sapiens with 6 samples.

Results

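The kinesin superfamily was followed in HCT116 cells on 6 exon arrays. A gene counted as a kinesin when its probe sets carried, as their only gene symbol, a name of the KIF series with 1 number and at most 1 letter from A to C, or one of KIFC1 to KIFC3. This gave 42 genes of the 17841 genes measured, represented by 1284 probe sets, and all 42 passed the filter on dim probe sets. They were the same 42 genes that the RefSeq gene table of GRCh38.p14 holds under such symbols. Passing the filter does not show that a gene is expressed: blood-cell markers passed it too, with log2 levels from 6.18 to 7.29. CENPE, a kinesin motor by sequence whose symbol falls outside that rule, is described with the partner genes.

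HCT116 is an established human colorectal carcinoma line, titled HCT116 +/+ in the labels. The groups were 2 arrays of cells given Nutlin-3, 2 arrays of cells given 5-fluorouracil (5FU) and 2 control arrays, all harvested after 12 h. Nutlin-3 is a small molecule that releases p53 from its inhibitor MDM2, and 5FU is a pyrimidine analogue that disturbs nucleotide synthesis and RNA metabolism. The sample labels write Nutlin 3R where the design text writes Nutlin-3, and give no treatment for the control where the design text names DMSO. No source used here states a dose. Nothing in the labels says that replicates came from separate cultures, so the p-values cover the spread among these arrays alone, and that spread may be technical.

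Kinesins are motor proteins that use ATP to move along microtubules or to take them apart. One set of them builds and positions the mitotic spindle, moves chromosomes and organises the midzone where the cell divides, and many of these genes are transcribed mainly in G2 and M phase. Others carry vesicles, mitochondria and protein complexes through the cytoplasm in dividing and non-dividing cells alike, and a few work in or at the base of cilia. By known role the 42 genes were placed in 14 mitotic kinesins, 17 transport kinesins, 6 kinesins of cilia and 5 others. The classes were set with earlier results of these data known, and KIF2A, which works at spindle poles and in neurons, was placed among the others.

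Every kinesin that passed the test in any of the 3 comparisons was a mitotic one. After Nutlin-3, 9 of the 14 mitotic kinesins fell, by 1.96-fold to 4.07-fold, while 0.858% of all genes fell, and the median difference of the 14 was -1.62 on the log2 scale. The calls depended on single arrays, over all genes as well. The median of the 14 lay between -1.78 and -1.32 when any 1 array was left out. After 5FU none passed the test, 13 of 14 had a mean below control, and the median difference was -0.44, which became -0.23 without control replicate 1 and -0.65 without control replicate 2. Among the 17 transport kinesins no gene passed the test after either drug, with medians of 0.06 and 0.09. Whether each of these genes is expressed in the cells was not tested. However, KIF5B passed after both drugs in a fit with a crossed pairing of replicates that was added after the data were seen. That fit called 1788 and 1882 of 17841 genes after Nutlin-3 and 5FU.

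The stretches just upstream of the mitotic kinesin genes shared short sequence elements that the choice of genes did not use. RefSeq promoter windows of GRCh38.p14, from 250 bases before the annotated start through the first 50 bases of the gene, were matched for 34 of the 42 kinesins, among them all 14 mitotic ones and 12 transport kinesins. They were searched on both strands for the cell cycle homology region, CHR (TTTGAA or TTCGAA), the element that the DREAM repressor complex and B-MYB complexes recognise in many G2 and M phase genes, for the CCAAT box (CCAAT), the element bound by NF-Y, and for an E2F site (TTTCGCGC or TTTGGCGC). None of these letter strings contains another. The sequences below cover 8 of the 9 kinesins that fell after Nutlin-3, 7 with both elements and KIF2C with neither, beside the transport motor KIF5B. Each runs 5′ to 3′ on the strand of the gene, from 100 bases before the start over 120 bases in all, with CHR and CCAAT matches in capitals. A match on the opposite strand reads TTCAAA for the CHR and ATTGG for the CCAAT box.
KIF11: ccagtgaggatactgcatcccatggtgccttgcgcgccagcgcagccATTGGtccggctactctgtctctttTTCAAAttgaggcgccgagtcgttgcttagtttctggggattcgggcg
KIF18A: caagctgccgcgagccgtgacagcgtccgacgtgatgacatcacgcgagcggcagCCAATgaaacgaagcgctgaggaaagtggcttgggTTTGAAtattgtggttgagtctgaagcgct
KIF18B: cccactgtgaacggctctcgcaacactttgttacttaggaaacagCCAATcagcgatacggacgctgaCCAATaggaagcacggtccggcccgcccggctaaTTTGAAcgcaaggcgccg
KIF23: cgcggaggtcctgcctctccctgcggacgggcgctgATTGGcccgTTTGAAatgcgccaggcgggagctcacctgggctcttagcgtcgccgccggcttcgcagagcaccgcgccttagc
KIF4A: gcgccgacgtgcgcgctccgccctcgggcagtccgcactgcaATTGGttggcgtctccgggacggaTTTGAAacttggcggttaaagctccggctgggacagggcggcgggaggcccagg
KIFC1: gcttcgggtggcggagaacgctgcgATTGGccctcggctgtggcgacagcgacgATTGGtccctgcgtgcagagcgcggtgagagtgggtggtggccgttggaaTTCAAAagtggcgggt
KIF22: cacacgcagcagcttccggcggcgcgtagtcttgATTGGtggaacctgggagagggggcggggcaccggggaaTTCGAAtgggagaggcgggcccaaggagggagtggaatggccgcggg
KIF2C: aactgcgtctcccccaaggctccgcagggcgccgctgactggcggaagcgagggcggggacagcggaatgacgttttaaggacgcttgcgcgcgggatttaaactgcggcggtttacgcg
KIF5B: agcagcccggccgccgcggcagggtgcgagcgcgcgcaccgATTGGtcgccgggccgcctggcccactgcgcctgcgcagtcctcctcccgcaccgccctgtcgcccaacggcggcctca

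On GRCh38.p14 these stretches lie for KIF11 at chr10:92593030-92593149 (plus strand), KIF18A at chr11:28108137-28108256 (minus strand), KIF18B at chr17:44947754-44947873 (minus strand), KIF23 at chr15:69414249-69414368 (plus strand), KIF4A at chrX:70290004-70290123 (plus strand), KIFC1 at chr6:33391723-33391842 (plus strand), KIF22 at chr16:29790651-29790770 (plus strand), KIF2C at chr1:44739737-44739856 (plus strand) and KIF5B at chr10:32056406-32056525 (minus strand). With the first transcribed base counted as 0, the CCAAT match of KIF11 began at -53 and its CHR match at -28, and those of KIF4A began at -58 and -34. In KIF18A the pair stood at -45 and -10, in KIF23 at -64 and -55, and in KIF22, which has the TTCGAA form, at -66 and -27. KIF18B carried CCAAT matches at -55 and -32 and a CHR match at 2, and KIFC1 had them at -75, -46 and 4. In each of these 7 promoters the CCAAT matches lay upstream of the CHR match.

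A CHR match was present in 11 of the 14 mitotic kinesin promoters (78.6%), in 1 of 12 transport kinesin promoters (8.3%) and in 16.6% of all 27305 promoters. The CCAAT box was present in 11 of 14 mitotic promoters (78.6%), in 3 of 12 transport promoters (25%) and in 35.7% of all promoters. Both stood together in 10 of 14 mitotic promoters (71.4%), in 1 of 12 transport promoters (8.3%) and in 6.6% of all promoters. The 1 transport promoter with both was that of KIF5B, whose CHR match at -140 lies upstream of the printed stretch. An E2F match was seen in 1 mitotic promoter, that of KIF15, and in 1.2% of all promoters. Among the 9 kinesins that fell after Nutlin-3, 7 had a CHR match (77.8%) and 8 a CCAAT match (88.9%), beside 78.6% of all 14 mitotic kinesins for each. KIF4B, whose Nutlin-3 and control arrays overlapped, also carried both. KIF20A had CCAAT matches alone, at -94 and -67, and KIF2C had none of the searched letter strings in its window. KIF2B was the other mitotic kinesin with no CHR match. Such a match is a description of the letters and not of a bound site. The mapped matches show the short distances from the start at which most of them lay.

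**Figure D1:**
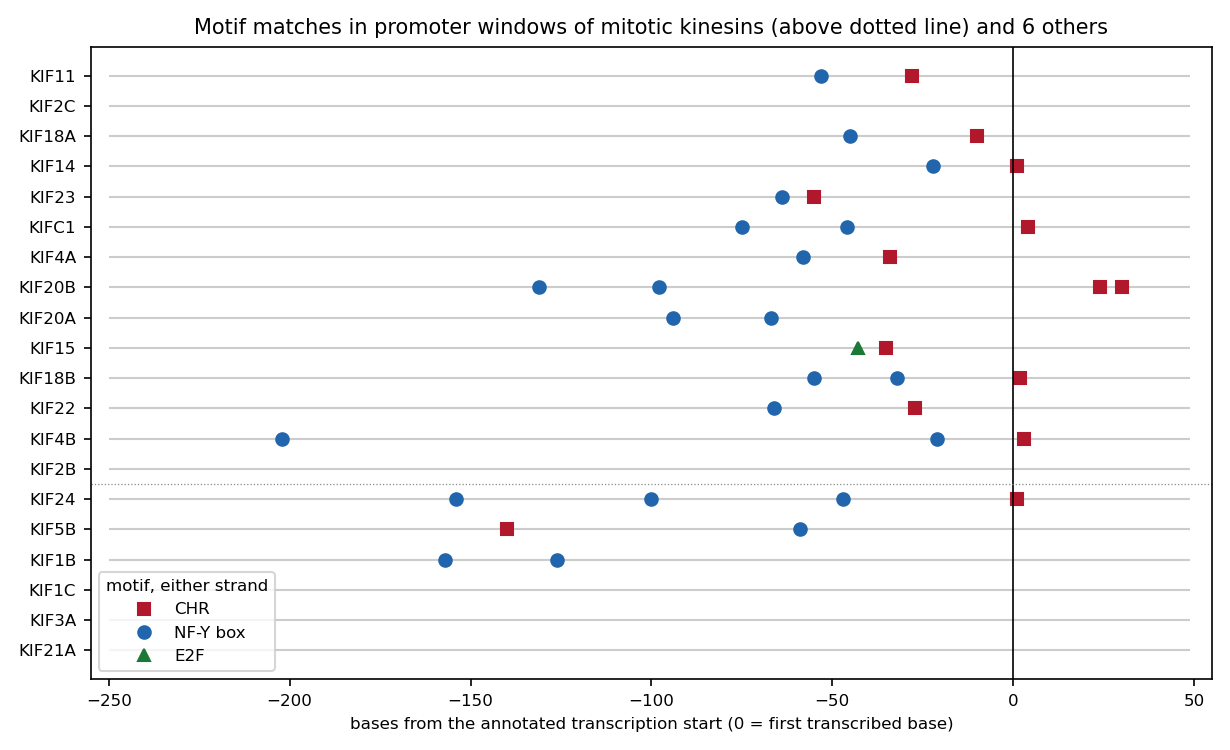
Positions of the searched motifs in the promoter windows of the mitotic kinesins (above the dotted line) and of 6 other kinesins. The x axis is the distance in bases from the annotated start (0) and each row is a gene; squares are CHR matches, circles CCAAT boxes (NF-Y box) and the triangle an E2F match. The CHR matches of KIF11 (-28), KIF18A (-10) and KIF4A (-34) sit close to the start, downstream of their CCAAT matches.

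All gene values are log2 values from probe sets, which differ between genes in brightness, so levels are compared between arrays for 1 gene. Between genes they are only set beside the filter value and the blood-cell markers, as a rough gauge of low signal. Each gene value is the mean of its used probe sets, 2 to 64 per kinesin with a median of 25.5. Differences are Nutlin-3 or 5FU minus control, or Nutlin-3 minus 5FU, with the adjusted p of limma over 17841 genes, and a gene is said to have fallen or risen only where that adjusted p was below 0.05. With 2 arrays against 2, an exact permutation test of a single gene cannot give a two-sided p below 0.333. The 2 drug comparisons share the same control arrays and are therefore given side by side.

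The comparison of Nutlin-3 with control asks what stabilising p53 without direct DNA damage does to the transcriptome of these cells. Across all genes 153 of 17841 fell (0.858%) and 64 rose (0.359%). Of the 42 kinesins 9 fell and none rose, and all 9 were mitotic kinesins: KIF11, KIF2C, KIF18A, KIF23, KIFC1, KIF4A, KIF20A, KIF18B and KIF22. Their adjusted p-values lay between 0.0099 and 0.0422. The count rested on single arrays and was lower when any 1 array was left out, as was the count over all genes. The median difference of the 14 mitotic kinesins lay between -1.78 and -1.32 when any 1 array was left out.

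KIF11, also called Eg5, slides antiparallel microtubules apart and so makes the spindle bipolar. Its log2 values were 5.40 and 6.01 in Nutlin-3 arrays, against 7.89 and 7.57 in control arrays. The groups were well apart, with a difference of -2.02 (SE 0.27, 95% interval -2.66 to -1.39), which is 4.07-fold lower (adjusted p = 0.0225). This was the largest difference among the 42 kinesins. KIFC1, the minus-end-directed motor that focuses spindle poles, had 6.14 and 6.24 in Nutlin-3 arrays and 8.16 and 7.67 in control arrays. It fell 3.31-fold, by 1.73 on the log2 scale (SE 0.18, adjusted p = 0.0128), and the 2 Nutlin-3 arrays lay closer together than the 2 control arrays.

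KIF2C, known as MCAK, takes microtubules apart at centromeres and corrects wrong attachments. It had 6.80 and 6.83 in Nutlin-3 arrays, against 8.97 and 8.48 in control arrays. At -1.91 (SE 0.19, 3.76-fold lower) it had the lowest adjusted p among the kinesins, 0.0099. KIF18A, which shortens the swings of chromosomes at the metaphase plate, had 6.07 and 6.82 after Nutlin-3 and 8.47 and 8.01 in controls. Its replicates were further apart, and the fall of 3.47-fold carried a wider error (-1.80, SE 0.29, adjusted p = 0.0422). KIF18B, its relative on astral microtubules, had 6.90 and 7.0 in Nutlin-3 arrays and 8.02 and 8.13 in control arrays, a fall of 2.18-fold (-1.13, SE 0.13, adjusted p = 0.0158) with both groups tight.

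The chromosome-bound kinesins fell as well. KIF4A, which binds chromosome arms and sets the length of midzone microtubules together with PRC1, had 7.25 and 7.45 in Nutlin-3 arrays, against 9.11 and 8.96 in control arrays (3.22-fold lower, -1.69, SE 0.19, adjusted p = 0.0133). KIF22, or Kid, pushes chromosome arms away from the poles. It had 7.98 and 7.95 in Nutlin-3 arrays and 8.93 in both control arrays, the smallest fall among the 9 at 1.96-fold (-0.97, SE 0.14, adjusted p = 0.0296). Neither gene had an array of 1 group within the range of the other.

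Among the motors of the midzone and of cytokinesis, KIF23, the MKLP1 subunit of centralspindlin, had 7.57 and 8.0 after Nutlin-3 and 9.58 and 9.46 in controls. It fell 3.33-fold (-1.74, SE 0.19, adjusted p = 0.0133). KIF20A, or MKLP2, which brings the chromosomal passenger complex to the midzone, had 7.13 and 7.45 in Nutlin-3 arrays, against 9.02 and 8.47 in control arrays (2.74-fold lower, -1.45, SE 0.22, adjusted p = 0.0338). Both motors stood apart from control on every array.

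A further 3 mitotic kinesins had both Nutlin-3 arrays below both control arrays without passing the test. KIF14, a motor of cytokinesis that binds citron kinase, had 5.75 and 6.21 in Nutlin-3 arrays and 8.19 and 7.28 in control arrays. Its difference of -1.75 was as large as that of several called genes, but the SD of its control arrays was 0.64 and the adjusted p was 0.0531. KIF20B, another motor of late cytokinesis, had 5.21 and 6.06 in Nutlin-3 arrays and 7.38 and 6.98 in control arrays (-1.55, adjusted p = 0.0983). KIF15, which can stand in for KIF11 in keeping spindles bipolar, had 5.33 and 5.44 in Nutlin-3 arrays and 7.24 and 6.29 in control arrays (-1.38, adjusted p = 0.111). Groups that do not overlap, with the Nutlin-3 arrays lower, were found for 12 of the 14 mitotic kinesins and for 18.0% of all genes. The Nutlin-3 means of KIF15, KIF20B and KIF11, 5.38, 5.64 and 5.71, lay close above the filter value of 4.73. The size of their differences is therefore less certain. Blood-cell markers read 6.18 to 7.29 on these arrays. The Nutlin-3 means of KIF14 (5.98), KIFC1 (6.19), KIF18A (6.44), KIF2C (6.81) and KIF18B (6.95) lay below or within that range. For these genes the size is less certain too.

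KIF4B and KIF2B were the 2 mitotic kinesins whose Nutlin-3 and control arrays overlapped. KIF4B, a close copy of KIF4A, had 6.48 and 6.09 in Nutlin-3 arrays and 6.26 and 6.41 in control arrays. KIF2B, a relative of KIF2C at kinetochores, had 6.65 and 6.40 in Nutlin-3 arrays and 6.29 and 6.47 in control arrays. Their differences were -0.05 and 0.14. They rested on 2 and 3 used probe sets, against 11 to 38 for the other 12 mitotic kinesins, and probe sets annotated to both KIF4A and KIF4B were not used, so signal shared between the 2 copies is uncertain.

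**Figure D2:**
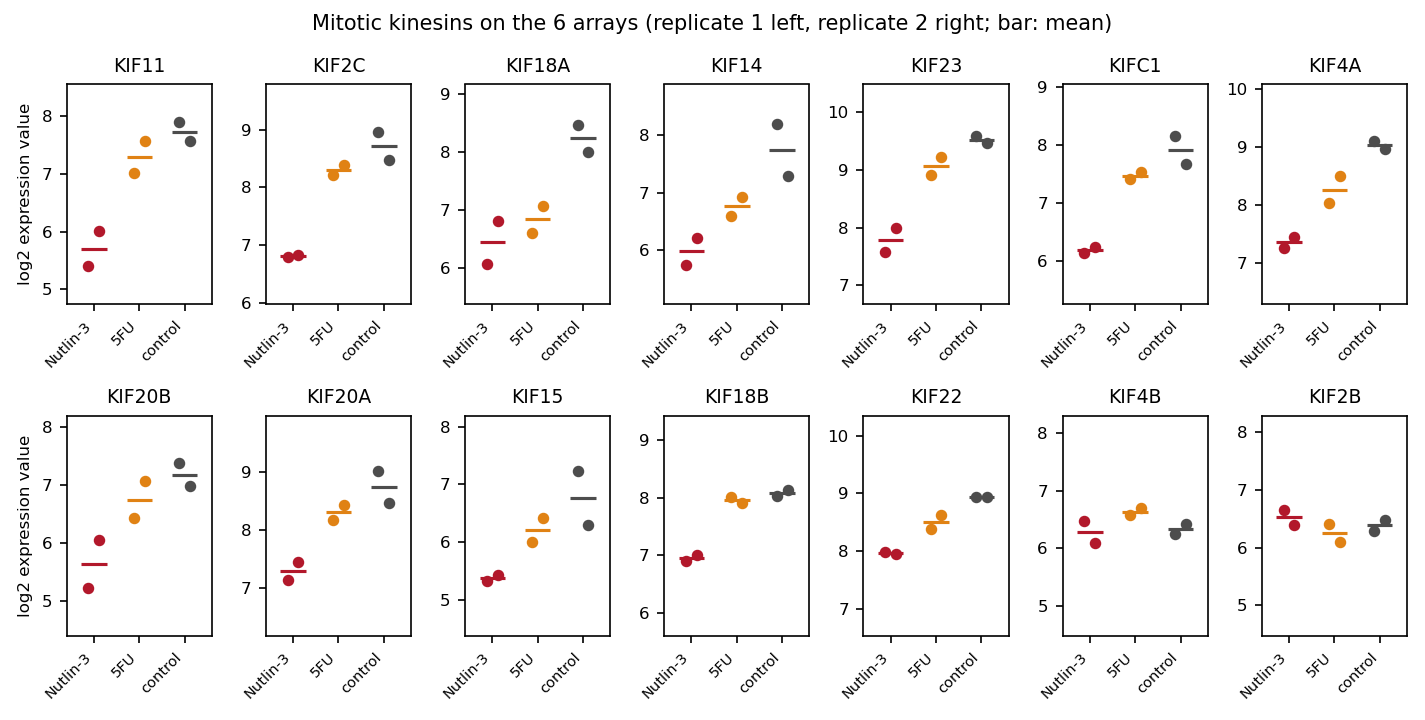
Log2 values of the 14 mitotic kinesins on each array, with Nutlin-3 left of 5FU and control; points are single arrays and lines are means of 2 arrays. In 12 of the 14 panels both Nutlin-3 arrays lie below both control arrays, as in KIF11 (5.40 and 6.01, against 7.89 and 7.57), and KIF4B and KIF2B are the exceptions.

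The comparison of 5FU with control asks the same of a drug that acts on nucleotide and RNA metabolism. Across all genes 80 of 17841 passed the test in either direction (0.448%), and no kinesin was among them. By unadjusted p below 0.05 there were 6 of 42 kinesins, all of them mitotic: KIF14, KIF18A, KIF22, KIF23, KIF4A and KIFC1. The share of all genes with such a p was 10.7%, and 6 of 42 is near it. Within the mitotic class the count was 6 of 14, but the classes were set with earlier results of these data known. Of the 14 mitotic kinesins 13 had a mean below control, and in 9 both 5FU arrays lay below both control arrays, against 18.0% of all genes. Differences of these 9 ranged from -1.40 to -0.12, with adjusted p between 0.135 and 0.882.

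KIF18A had the lowest mitotic difference after 5FU, with 6.60 and 7.08 in 5FU arrays, against 8.47 and 8.01 in control arrays. Its difference was -1.40 (95% interval -2.10 to -0.71, 2.65-fold lower, adjusted p = 0.135). KIF18A was the 1 kinesin that passed the test when only the brighter probe sets, those above the upper quartile, were used. In that setting 151 of 15166 genes passed in either direction. KIF14 came next, with 6.60 and 6.92 in 5FU arrays and 8.19 and 7.28 in control arrays (-0.98, adjusted p = 0.32). KIF4A had 8.03 and 8.49 in 5FU arrays and 9.11 and 8.96 in control arrays (-0.78, adjusted p = 0.188). In all 3 genes the 5FU arrays lay between the Nutlin-3 and the control arrays by their means.

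The remaining mitotic kinesins were closer to control. KIF11 had 7.02 and 7.57 in 5FU arrays and 7.89 and 7.57 in control arrays, with a difference of -0.43 (95% interval -1.07 to 0.20, adjusted p = 0.685). KIF2C had 8.22 and 8.40 in 5FU arrays and 8.97 and 8.48 in control arrays (-0.42, interval -0.86 to 0.02, adjusted p = 0.5). KIF23 had 8.91 and 9.22 in 5FU arrays and 9.58 and 9.46 in control arrays (-0.46, adjusted p = 0.46). The lower bounds of the 5FU intervals of these 3 motors were -1.07, -0.86 and -0.91, above the Nutlin-3 differences of -2.02, -1.91 and -1.74. Those differences carry their own error and share the control arrays, so this is no test between the drugs. In the direct comparison KIF2C and KIF23 passed and KIF11 did not (adjusted p of limma 0.0669).

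KIFC1 had 7.41 and 7.54 in 5FU arrays and 8.16 and 7.67 in control arrays (-0.44, adjusted p = 0.46). KIF20A, at 8.17 and 8.44 in 5FU arrays and 9.02 and 8.47 in control arrays, had a like difference of -0.44 (adjusted p = 0.575). KIF22 had 8.38 and 8.63 in 5FU arrays and 8.93 in both control arrays (-0.43, adjusted p = 0.336). These 3 genes did not overlap with control and yet missed the threshold by far. KIF18B showed the least difference of the 9, with 8.0 and 7.90 in 5FU arrays and 8.02 and 8.13 in control arrays (-0.12, interval -0.43 to 0.19). KIF15 and KIF20B overlapped with control, with differences of -0.55 and -0.44. KIF4B was the mitotic kinesin above control, with 6.58 and 6.69 in 5FU arrays and 6.26 and 6.41 in control arrays (0.30, adjusted p = 0.633).

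Nutlin-3 and 5FU were also set directly against each other, without the control arrays in the difference. Across all genes 102 of 17841 were lower after Nutlin-3 than after 5FU at the threshold (0.572%). Among the kinesins 4 were: KIF2C, KIFC1, KIF23 and KIF18B, all mitotic, by 2.01-fold to 2.81-fold with adjusted p between 0.031 and 0.0468. In 12 of the 14 mitotic kinesins the mean was lower after Nutlin-3 and the arrays of the 2 drugs did not overlap, against 25.2% of all genes. The 4 calls were close to the threshold: with each array centred on its median the count was 0. That setting called 37 of 17841 genes in either direction. The calls also depended on each of the 4 drug arrays, over all genes as well.

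KIF2C had 6.80 and 6.83 in Nutlin-3 arrays and 8.22 and 8.40 in 5FU arrays, a difference of -1.49 (SE 0.19, adjusted p = 0.031). KIFC1 had 6.14 and 6.24 in Nutlin-3 arrays and 7.41 and 7.54 in 5FU arrays (-1.29, adjusted p = 0.0435). KIF18B had 6.90 and 7.0 in Nutlin-3 arrays and 8.0 and 7.90 in 5FU arrays (-1.0, adjusted p = 0.0342). In KIF18B the 5FU arrays lay next to the control arrays, and the Nutlin-3 arrays about a whole log2 unit below both. KIF23 had 7.57 and 8.0 in Nutlin-3 arrays and 8.91 and 9.22 in 5FU arrays (-1.28, adjusted p = 0.0468).

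KIF11 differed most between the drugs in size, at -1.59 (95% interval -2.22 to -0.96), and missed the threshold at an adjusted p of 0.0669. KIF18A had the smallest difference between the drugs among the 12 mitotic kinesins that lay below control after Nutlin-3, with 6.07 and 6.82 in Nutlin-3 arrays and 6.60 and 7.08 in 5FU arrays. Its groups overlapped, and the difference of -0.39 had an interval from -1.08 to 0.30, which includes both a like level and a lower level after Nutlin-3. KIF4A, at -0.91 (interval -1.35 to -0.47, adjusted p = 0.101), lay between these.

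Replicates of the mitotic kinesins differed in a shared way, and this sets the errors above. The pattern was not particular to them. Over 17841 genes the replicate differences correlated at 0.634 between Nutlin-3 and 5FU, and at -0.565 and -0.525 between each drug and control. Median replicate 2 minus 1 in Nutlin-3, 5FU and control was 0.15, 0.29 and -0.36 over all 14 mitotic kinesins. For the 17 transport kinesins it was 0.24, 0.10 and -0.06. Of the 12 mitotic kinesins lower after Nutlin-3, 11 had the higher value in Nutlin-3 replicate 2 (median replicate 2 minus 1 of 0.25) and 11 in 5FU replicate 2 (0.31), while 11 had the lower value in control replicate 2 (-0.43). As a median over all 14 mitotic kinesins, each array's distance from the control mean was -1.78 and -1.38 for Nutlin-3 replicates 1 and 2, -0.59 and -0.30 for 5FU, and 0.18 and -0.18 for control. The 3 groups therefore did not overlap on this median, although the 5FU replicate 2 array and the control replicate 2 array were close. For the transport kinesins the same distances were -0.06 and 0.06, 0.09 and 0.17, and 0.03 and -0.03. In these bulk samples fewer cells in a cell cycle phase and less RNA per cell cannot be told apart.

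**Figure D3:**
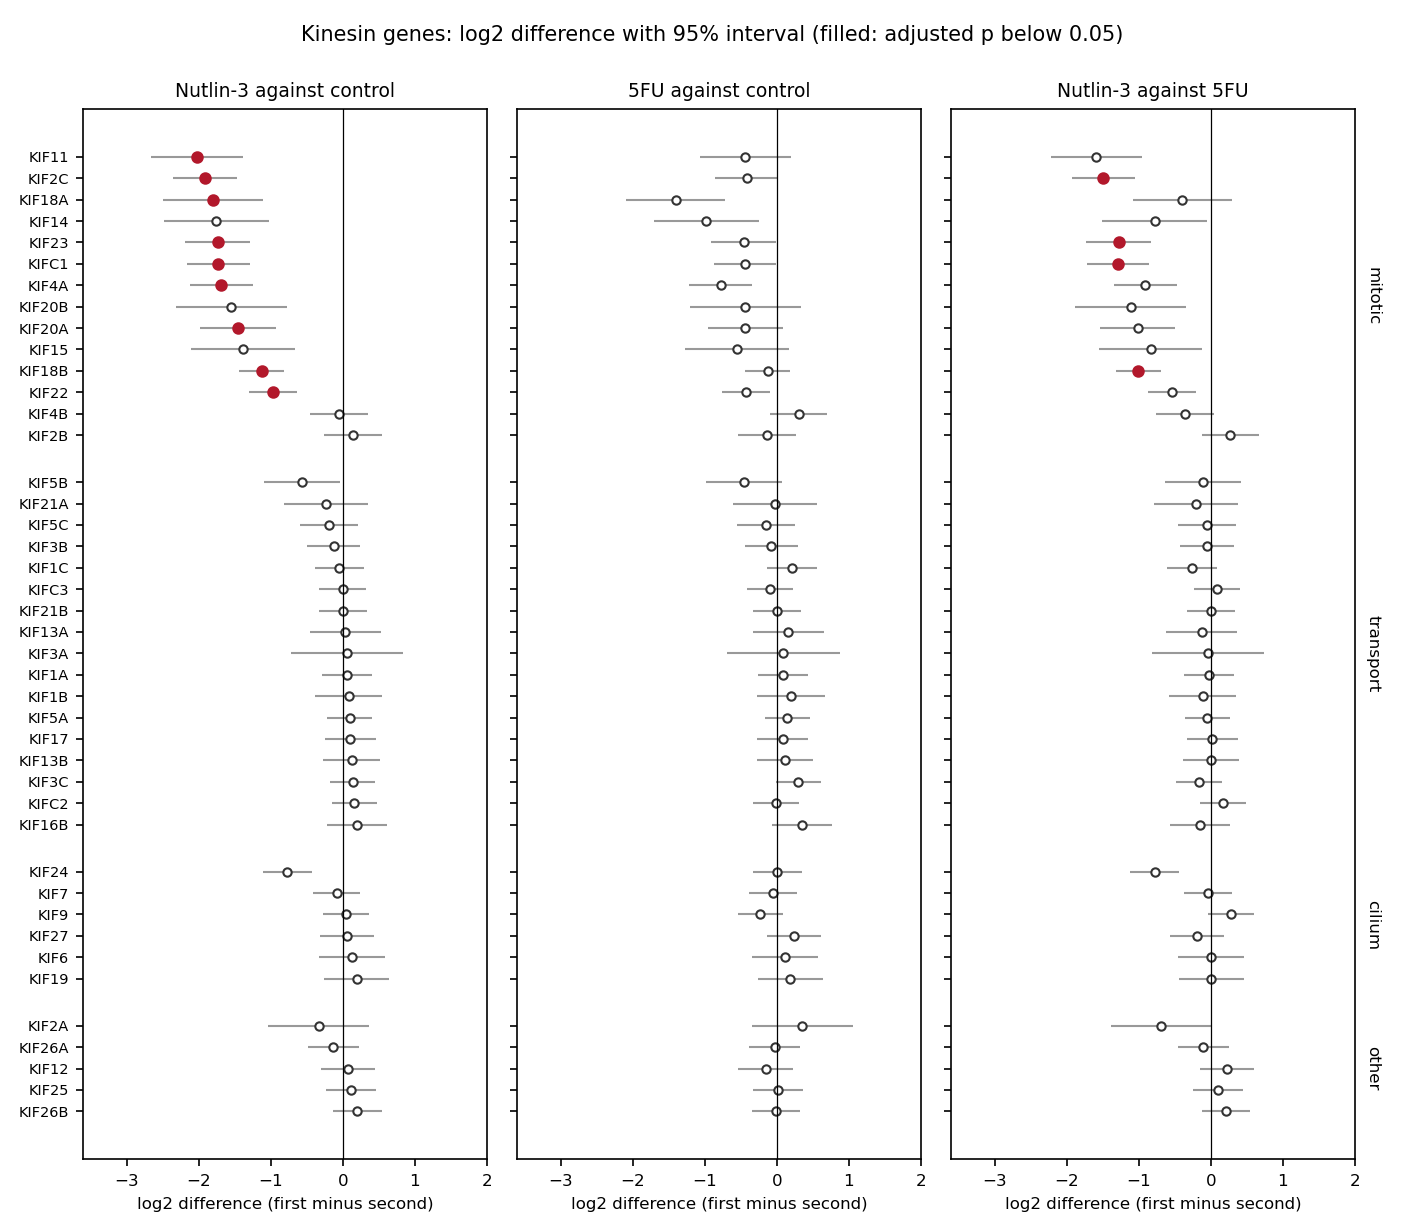
Log2 difference of each of the 42 kinesins, Nutlin-3 minus control, 5FU minus control and Nutlin-3 minus 5FU, grouped by role, with 95% intervals from limma and filled points where the adjusted threshold was passed. The mitotic kinesins reach down to -2.02 (KIF11) after Nutlin-3, while the transport kinesins lie about 0 with KIF5B the lowest at -0.56.

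The transport kinesins gave no called gene in any comparison, and by unadjusted p below 0.05 there was 1 after Nutlin-3, 0 after 5FU and 0 between the drugs, against 10.2%, 10.7% and 13.3% of all genes. After Nutlin-3, 6 of 17 had a mean below control and 11 above it; after 5FU the counts were 7 and 10. Their median difference of 0.06 after Nutlin-3 became -0.06 without Nutlin-3 replicate 2, and that of 0.09 after 5FU became -0.0025 without control replicate 2 and 0.17 without 5FU replicate 1. KIF5B, the heavy chain of conventional kinesin found in most cell types, was the exception by its arrays. It had 8.81 and 9.21 in Nutlin-3 arrays and 8.86 and 9.37 in 5FU arrays, against 9.69 and 9.46 in control arrays, so every drug array lay below every control array. Its differences were -0.56 (95% interval -1.09 to -0.04, adjusted p = 0.45) after Nutlin-3 and -0.46 (interval -0.98 to 0.07, adjusted p = 0.552) after 5FU. It was the gene with the unadjusted p below 0.05 after Nutlin-3.

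KIF1B, which carries mitochondria and synaptic vesicle precursors, had 7.85 and 8.13 in Nutlin-3 arrays and 8.05 and 8.15 in 5FU arrays, against 8.15 and 7.65 in control arrays. KIF3A, a motor subunit of intraflagellar and vesicle transport, had 6.37 and 6.90 in Nutlin-3 arrays and 6.38 and 6.96 in 5FU arrays, against 6.99 and 6.16 in control arrays. Both genes overlapped fully between groups. KIF13B, a vesicle motor, had 6.16 and 6.56 in Nutlin-3 arrays and 6.31 and 6.41 in 5FU arrays, against 6.22 and 6.26 in control arrays (0.12 in both differences). KIF21A, known for restraining microtubule growth, had 7.16 and 7.69 in Nutlin-3 arrays and 7.37 and 7.88 in 5FU arrays, against 7.81 and 7.49 in control arrays (-0.23 and -0.03). None of these 4 genes passed the test, and their groups overlapped, except that the 5FU arrays of KIF13B lay just above control.

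KIF1C, a motor of vesicle transport, had 8.55 and 8.79 in Nutlin-3 arrays and 8.86 and 9.01 in 5FU arrays, against 8.75 and 8.68 in control arrays. It was one of 5 transport kinesins whose 5FU arrays both lay above control, against 20.0% of all genes, with a difference of 0.22 (adjusted p = 0.727). KIF16B, a motor of early endosomes, had the highest transport difference after both drugs, at 0.20 and 0.35 (adjusted p = 0.83 and 0.568). Its values were 6.16 and 6.54 in Nutlin-3 arrays and 6.37 and 6.63 in 5FU arrays, against 6.18 and 6.11 in control arrays. The 95% intervals of the 17 genes reached from -1.09 (KIF5B) to 0.84 (KIF3A) after Nutlin-3 and from -0.98 (KIF5B) to 0.87 (KIF3A) after 5FU, and between the drugs the lowest and highest differences were -0.26 (KIF1C) and 0.17 (KIFC2).

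Of the 6 kinesins of cilia, KIF24 was the 1 with no overlap between Nutlin-3 and control arrays. A count of 1 in 6 is near the share of all genes without overlap, 18.0% below control and 16.2% above it. KIF24 binds the centriole and holds back the growth of cilia in cycling cells. It had 5.41 and 5.42 in Nutlin-3 arrays and 6.11 and 6.28 in 5FU arrays, against 6.30 and 6.07 in control arrays. The 5FU arrays lay within the control range, and both Nutlin-3 arrays lay well below it: the difference from control was -0.77 (95% interval -1.11 to -0.43, 1.71-fold lower, adjusted p = 0.0684) after Nutlin-3 and 0.01 after 5FU. The difference between the drugs was -0.78 (adjusted p = 0.0849). Its Nutlin-3 mean of 5.42 also lay close above the filter value, so the size of these differences is less certain. KIF24 passed against control and against 5FU in the fit with the crossed pairing of replicates, which was chosen from these same arrays. That fit called 1788 and 2821 of 17841 genes, so the pass is no independent evidence. With only the brighter probe sets KIF24 passed the test against control and against 5FU, as did 380 and 234 of 15166 genes. The KIF24 promoter held CCAAT matches at -154, -100 and -47 and a CHR match at 1. It was the 1 with a CHR match among the 4 cilium kinesins whose promoter windows were matched.

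KIF9, a motor of motile cilia, had 6.01 and 5.96 in Nutlin-3 arrays and 5.74 and 5.68 in 5FU arrays, against 6.03 and 5.84 in control arrays. Its 5FU arrays were below both other groups, with a difference from control of -0.23 (adjusted p = 0.671). The highest difference of the class after Nutlin-3 was 0.19 for KIF19, on 2 used probe sets, and after 5FU 0.24 for KIF27. Among the 5 other kinesins, KIF2A, which takes microtubules apart at spindle poles and in neurons, had 7.07 and 7.70 in Nutlin-3 arrays and 7.85 and 8.29 in 5FU arrays, against 8.05 and 7.39 in control arrays. It was below control after Nutlin-3 (-0.33) and above it after 5FU (0.36), both within the replicate spread, and its Nutlin-3 arrays were lower than its 5FU arrays by -0.69 (interval -1.39 to 0.01, adjusted p = 0.383). KIF26B had the highest difference of these 5 after Nutlin-3, 0.21, and KIF12 had the lowest after 5FU, -0.15.

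The difference in a mitotic kinesin was spread over its probe sets, which on this array type target separate stretches of its exons. After Nutlin-3, 278 of 287 used probe sets of the mitotic kinesins lay below control (96.9%), against 261 of 578 of the transport kinesins (45.2%). In KIF18A 15 of 15 probe sets were lower, in KIF23 25 of 25, in KIF20A 20 of 20 and in KIF20B 34 of 34. KIF11 had 26 of 27 lower, with a median of -2.04 and quartiles of -2.52 and -1.79. After 5FU, 268 of 287 mitotic probe sets lay below control (93.4%), with smaller sizes, for example a median of -1.43 in KIF18A and of -0.14 in KIF18B. Probe sets of 1 gene share the gene's RNA and are not independent.

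KIF5B and KIF2A had small differences that nearly all of their probe sets shared. This repeats the difference of the same arrays, and the KIF2A arrays overlapped with control after both drugs. Lopsided counts were also seen in KIFC2 after Nutlin-3 (6 of 32 below control) and in KIF1C after 5FU (5 of 29). In KIF5B 30 of 31 probe sets were lower after Nutlin-3 (median -0.52) and 31 of 31 after 5FU (median -0.45). In KIF2A 24 of 25 were lower after Nutlin-3 (median -0.25), while after 5FU 1 of 25 was (median 0.34). KIF1B had 20 of 64 probe sets below control after Nutlin-3 and 28 of 64 after 5FU. KIF24 had 18 of 20 below control after Nutlin-3 (median -0.68) and 11 of 20 after 5FU.

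**Figure D4:**
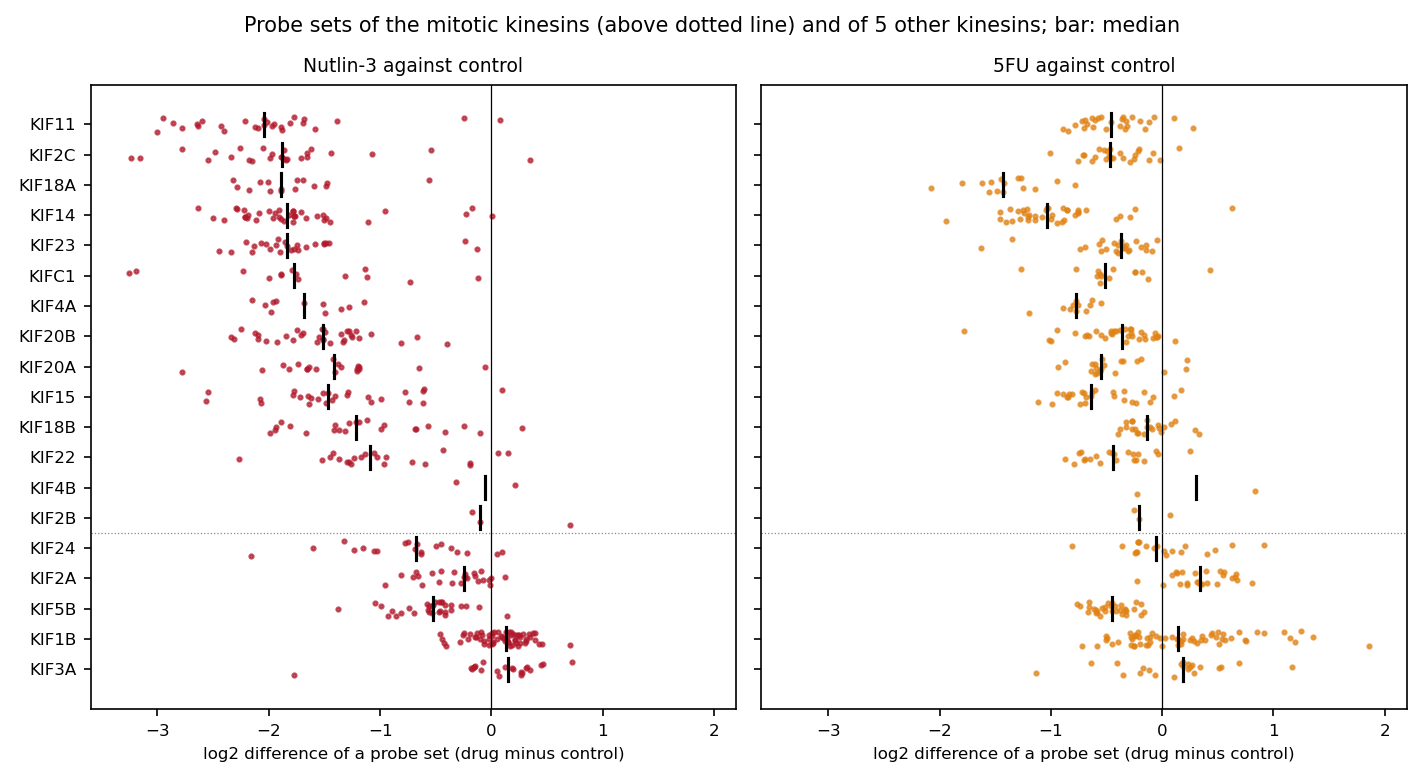
Log2 difference of single used probe sets of the mitotic kinesins (above the dotted line) and of 5 others, Nutlin-3 minus control and 5FU minus control; each point is 1 probe set and the bar is the median. The probe sets of KIF11 centre on -2.04 after Nutlin-3, those of KIF5B on -0.52, and those of KIF1B lie on both sides of 0.

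Genes that work with the kinesins were read from 4 lists. The spindle and midzone list held 23 genes of kinetochores, spindle and midzone, of which 22 were measured. After Nutlin-3, 13 of 22 fell and none rose, and all 22 had both Nutlin-3 arrays below both control arrays, with a median difference of -1.36. Over all genes 0.858% fell and 18.0% lay below control without overlap. NDC80, a kinetochore subunit that holds microtubules, fell 5.39-fold (-2.43, adjusted p = 0.0483). ANLN, the scaffold of the contractile ring, fell by 1.71 (adjusted p = 0.0386), and PRC1, the midzone bundler that recruits KIF4A, fell by 1.65 (adjusted p = 0.0133). CENPE, the kinesin of kinetochores, had a difference of -1.30 and did not pass (adjusted p = 0.159).

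After 5FU the spindle and midzone list had a median of -0.65, with 22 of 22 means below control and 2 genes that fell: PLK1, the mitotic kinase (-1.42, adjusted p = 0.026), and CKAP5, a microtubule polymerase of the spindle (-1.29, adjusted p = 0.039). CKAP5 differed by -0.69 after Nutlin-3, a smaller distance than after 5FU, and was one of 3 listed genes with a higher mean after Nutlin-3 than after 5FU. CENPE had -0.99 after 5FU (adjusted p = 0.329) and a difference of -0.30 between the drugs. Between the drugs none of the 22 passed (15 by unadjusted p below 0.05, against 13.3% of all genes), and the largest differences, Nutlin-3 minus 5FU, were those of NDC80 (-1.74, adjusted p = 0.143) and of NUSAP1, a microtubule-binding spindle protein (-1.23, adjusted p = 0.101). This list was drawn up with earlier results of these arrays known, so its direction is no independent evidence.

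The partners of the transport motors, the dynein genes and the tubulins gave no called gene after either drug. By unadjusted p below 0.05, counted for each list below, the share of all genes was 10.2% after Nutlin-3 and 10.7% after 5FU. Of 18 kinesin light chains and cargo adaptors none passed limma's adjusted threshold after either drug (2 and 1 by unadjusted p below 0.05), with medians of 0.05 after Nutlin-3 and 0.02 after 5FU. The largest differences after Nutlin-3 were those of KIFBP, a protein that binds kinesin motor domains and blocks them (-0.65, adjusted p = 0.212), and of TRAK1, the adaptor to mitochondria (0.57, adjusted p = 0.213), which had 0.65 after 5FU (adjusted p = 0.191). KIFAP3, the subunit that joins cargo to the KIF3 motors, came next after 5FU (0.45, adjusted p = 0.725). Among 22 measured genes of dynein, the motor that runs the other way, and of its activator dynactin, none passed either (2 after each drug by unadjusted p below 0.05). SPDL1, which brings dynein to kinetochores, had the largest difference after Nutlin-3 (-1.19, adjusted p = 0.203), before the light intermediate chain DYNC1LI1 (-0.49, adjusted p = 0.755). After 5FU these were the dynactin subunit DCTN6 (0.62, adjusted p = 0.436) and SPDL1 (-0.53, adjusted p = 0.674). Of 16 measured tubulins none passed (6 after Nutlin-3 and 2 after 5FU by unadjusted p below 0.05). In 7 of the 16 both Nutlin-3 arrays lay below both control arrays, against 18.0% of all genes. TUBD1 had -0.90 (adjusted p = 0.31) and TUBA1C -0.84 (adjusted p = 0.161) after Nutlin-3, and the median of the tubulins was -0.17. After 5FU their median was -0.07, with TUBG2 at 0.60 (adjusted p = 0.133) and TUBA1C at -0.52 (adjusted p = 0.436). Close copies among the tubulin genes can share signal.

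**Figure D5:**
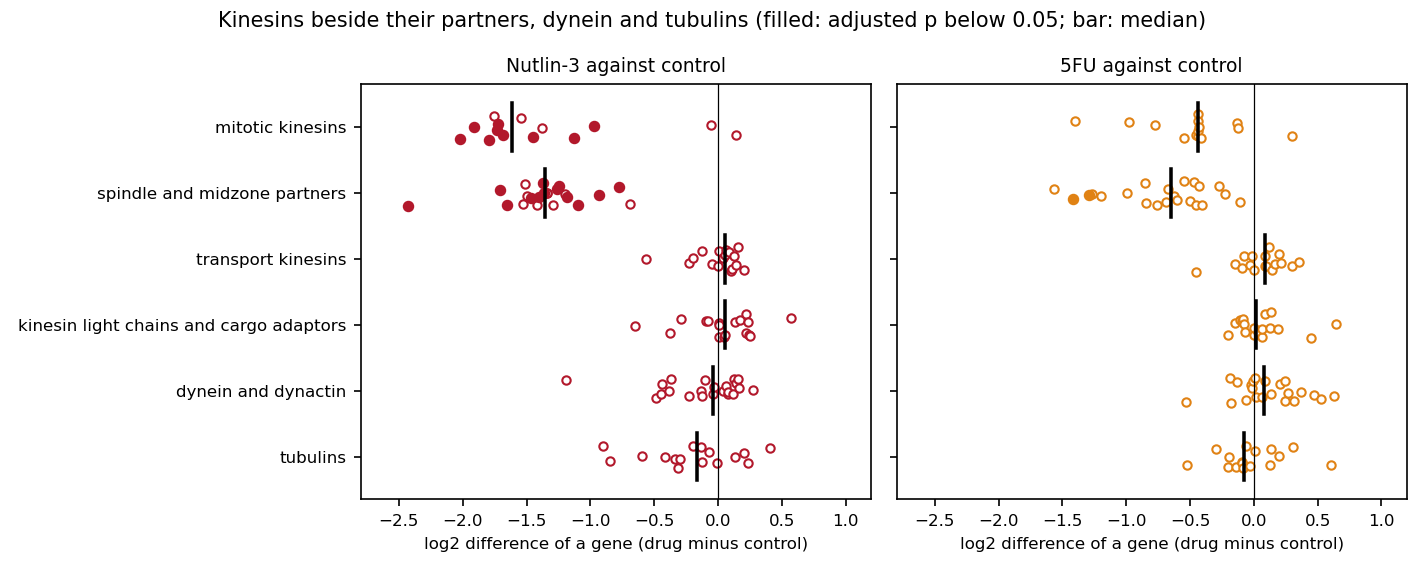
Log2 differences of the genes in each partner list and of the mitotic and transport kinesins, Nutlin-3 minus control and 5FU minus control; points are genes, filled where the adjusted threshold was passed, and bars are medians. The spindle and midzone list has medians of -1.36 and -0.65, and the light chains and adaptors, dynein and dynactin genes and tubulins have medians between -0.17 and 0.08.

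The arrays as a whole gave these checks. CDKN1A, the p53 target that blocks cyclin-dependent kinases, was higher by 2.10 after Nutlin-3 (adjusted p = 0.00308) and by 1.78 after 5FU (adjusted p = 0.00751), and MDM2 by 1.86 and 1.57. All 8 epithelial markers were measured and none passed the test, with levels from 5.71 to 11.31. Their largest differences after Nutlin-3 were those of KRT19 (0.59, groups apart, adjusted p = 0.181) and EPCAM (-0.38, groups overlapping, adjusted p = 0.751). Markers of fibroblasts (6 of 7 measured, levels 5.43 to 7.60) and of blood cells (4 of 6 measured, levels 6.18 to 7.29) held no called gene after either drug. The median probe set lay at 4.73 to 4.78 on the 6 arrays, and precision was limited by their number.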

How the data were processed

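Total RNA of HCT116 cells was hybridised to Affymetrix Human Exon 1.0 ST arrays, 2 per group. The authors deposited 1 log2 value for each probe set and array. The submitters' processing notes name RMA, with no version or settings in the sources used here. RMA subtracts background and equalises arrays, so a change in total RNA per cell would not be seen. The labels name the PicoPure kit and the design text RNeasy for the RNA. No source used here names an array batch.

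Of 1411399 probe sets, 357604 carried 1 gene symbol in the platform annotation and 15322 several, and those with several named no gene, among them 63 that include a kinesin. Of 19560 symbols 16472 were current in RefSeq GRCh38.p14, 2966 older ones were replaced by way of a single matching synonym and 122 stayed as they were. Dim probe sets, those with a 6-array mean at or below the overall median (4.73), were dropped, and a gene left with 2 or more took the mean of the rest as its value on each array. The 3 groups were fitted in 1 model with limma 3.58.1 (lmFit and eBayes, R 4.3.3), with 3 residual degrees of freedom and Benjamini-Hochberg adjustment over 17841 genes, and the procedure was tested on simulated data. The median residual SD was 0.161. The alternatives varied the probe-set filter, the summary, the centring, the variance model, the samples fitted and the replicate block.

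Named kinesins are all those that passed in any comparison, 14 motors chosen by role, and the highest and lowest difference of each class; for other lists, up to 3 genes that passed or the 2 largest differences. The other mitotic kinesins were described after their values were seen. The members, classes and lists were chosen with earlier results of these data known. Same-numbered replicates did not deviate together in all groups: the replicate differences correlated at 0.634 between Nutlin-3 and 5FU, -0.565 between Nutlin-3 and control and -0.525 between 5FU and control over 17841 genes. The main fit did not pair samples by number, because the labels do not say what a replicate number shares.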

Additional observations from a re-analysis of the deposited data

How the results depend on the processing

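The Nutlin-3 comparison was rerun with all probe sets, with brighter probe sets, with at least 4 probe sets per gene and with the median of probe sets. It was also rerun with arrays centred on medians, with trended robust variances and with only the compared groups. Over all genes 127 to 380 then passed in either direction. The count of 9 fallen kinesins stayed between 7 and 13. Leaving out 1 array lowered this count and the count over all genes. With the replicate number as a block the count was 0 after Nutlin-3, 0 after 5FU and 0 between the drugs. Of all 17841 genes the block fit called 2, 1 and 0. The block removes a degree of freedom and the numbers did not pair the samples. A crossed pairing, in which the control numbers were exchanged, was added after the data were seen and gave 14, 8 and 14, of which 12, 7 and 12 were mitotic. The others were KIF5B after each drug, KIF24 after Nutlin-3 and between the drugs, and KIF2A between the drugs. Over all 17841 genes this fit called 1788, 1882 and 2821. The exchange was chosen from the replicate differences of these same arrays, so its counts are no independent evidence. After 5FU the count of 0 became 1 with brighter probe sets (KIF18A), where 151 of 15166 genes passed. Between the drugs the count of 4 became 1 with all probe sets, 1 with the median of probe sets and 0 with arrays centred on medians, and 0 to 3 when 1 array was left out. The causes were not tested. The median of the mitotic kinesins after Nutlin-3 lay between -1.78 and -1.32 when 1 array was left out, and after 5FU between -0.65 and -0.23. The transport median lay between -0.0574 and 0.0733 after Nutlin-3 and between -0.0025 and 0.17 after 5FU, and was 0.17 after 5FU with the median of probe sets. No called kinesin changed direction under any alternative run.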
